A study of Mus musculus with 37 samples.

Results

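The strains described here are the 12 BXD strains with the highest and the 12 with the lowest level of lipogenic transcripts in brown adipose tissue (BAT), 24 of the 35 BXD strains and of 37 arrays in all. They were chosen by the measured values of *Fasn*, *Acaca*, *Acly*, *Elovl6* and *Me1*. These 5 values were averaged in each strain, with 1 probe set per gene, the one with the highest mean over the BXD strains. BAT transcripts were measured in BXD mice, recombinant inbred lines that each carry a fixed mixture of C57BL/6J and DBA/2J alleles, and in both parental strains. All groups were males of 29 weeks on an ordinary chow (Harlan 2018), fasted overnight and perfused under isoflurane before the tissue was frozen, and the labels name no other treatment or allele. RNA from about 5 mice was pooled by strain for 1 array, so a strain has no replicate array and the spread given is the spread between strains. BXD strains share parental alleles and are not fully independent of each other. No scan date or batch is named for these arrays.

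De novo lipogenesis turns glucose carbon into fatty acids. Citrate leaves the mitochondrion through SLC25A1, ACLY splits it into acetyl-CoA, ACACA makes malonyl-CoA, FASN builds palmitate with NADPH from ME1 and the pentose phosphate pathway, and ELOVL6 and the SCD desaturases lengthen and desaturate the product. Insulin and sugar drive the program through SREBP1c and ChREBP (*Mlxipl*, with its partner *Mlx*), and it falls during fasting. In brown fat the same cells also burn fatty acids for heat through UCP1.

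The tissue carried its label. *Ucp1*, *Cidea*, *Cox8b* and 4 further brown adipocyte markers averaged between 12.66 and 13.49 in the 24 strains, and the 6 general adipocyte markers between 13.46 and 13.76. Skeletal muscle transcripts were present in every strain, from 9.65 to 13.47 over 10 markers. The average of 10 liver markers stood at 12.23 in BXD70, a strain of the high group, against 7.96 at most in the other BXD strains. In the parent DBA/2J it was 10.24. Leaving BXD70 out gave 494 calls in place of the 509 described below, and 434 of them were among the 509. The 37 arrays correlated pairwise between 0.968 and 0.987 over all probe sets. Values are in the units of the deposited table, in which each array has a mean of 8 and a standard deviation (SD) of 2. A fold given as nominal is 2 to the power of a difference and assumes that the SD was 2 before rescaling.

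The average of the 5 transcripts ran from 12.761 in BXD85 to 14.723 in BXD87, a nominal 3.896-fold range. From the top, the high group held BXD87, BXD45, BXD56, BXD101, BXD68, BXD95, BXD89, BXD70, BXD75, BXD51, BXD65 and BXD48. From the bottom, the low group held BXD85, BXD61, BXD103, BXD71, BXD69, BXD80, BXD96, BXD90, BXD97, BXD66, BXD62 and BXD84. The edges of the groups were narrow. BXD48 entered the high group at 14.004 and BXD43 stayed out at 13.987, and BXD84 entered the low group at 13.659 while BXD81 stayed out at 13.667. The 11 strains between spanned 0.32 units, so most of the range lay within the 2 chosen groups, and BXD85 at 12.761 stood below the next strain, BXD61, at 13.25. Both parents ranked high. C57BL/6J had an average of 14.716, below 1 BXD strain only, and DBA/2J had 14.135, below 11.

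**Figure D1:**
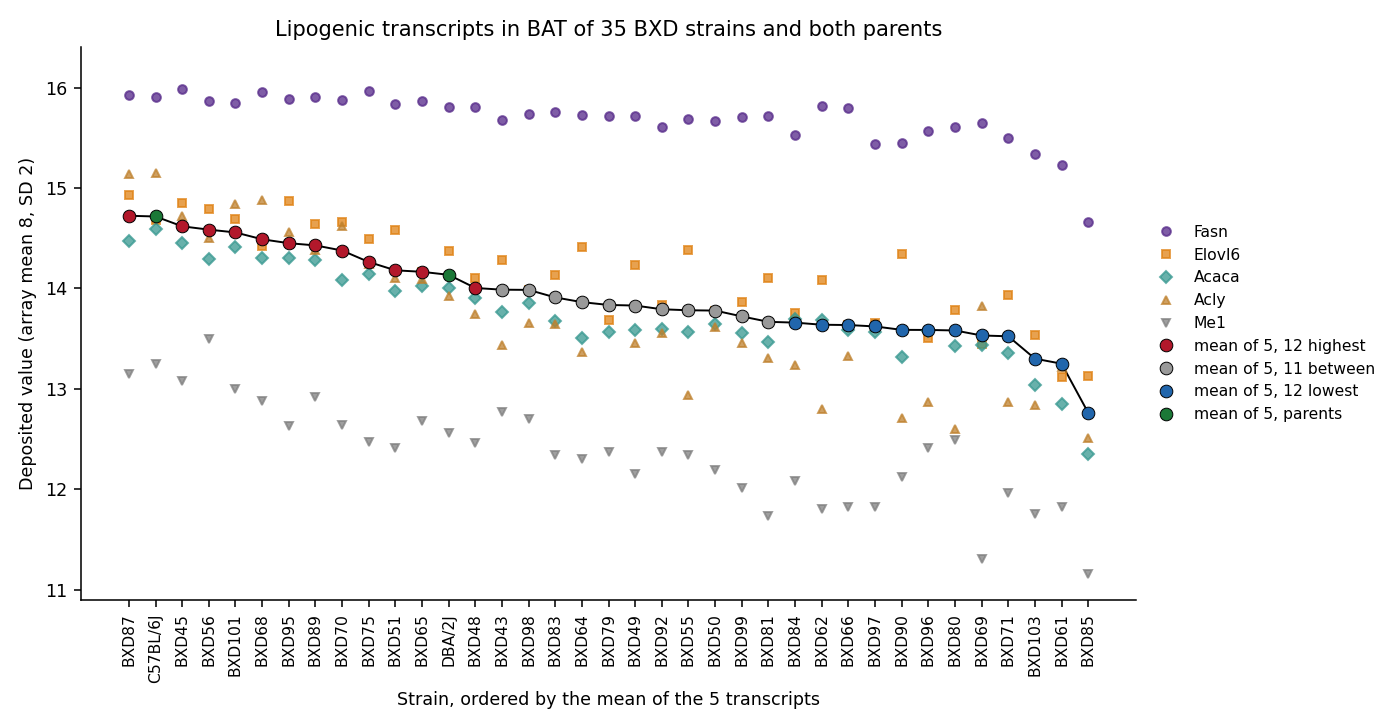
Deposited values (array mean 8, SD 2) of the 5 selection transcripts (coloured symbols) and their average (circles joined by a line) in each strain, ordered by the average. Red marks the 12 highest strains, grey the 11 between, blue the 12 lowest and green the parents. The average falls from 14.723 in BXD87 to 12.761 in BXD85.

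These 5 transcripts fixed the groups, so their differences are a description without a test. *Acly*, ATP citrate lyase, was at 13.75, 14.53 and 15.14 (lowest, median and highest) in the 12 high strains and at 12.51, 12.87 and 13.82 in the low strains, a difference of 1.45 units or nominally 2.73-fold. *Acaca*, acetyl-CoA carboxylase 1, was at 13.90, 14.29 and 14.47 in the high strains and at 12.36, 13.43 and 13.70 in the low strains, without overlap. *Elovl6*, the elongase that makes stearate from palmitate, was at 14.10, 14.65 and 14.93 against 13.12, 13.65 and 14.34. The cytosolic malic enzyme *Me1* overlapped slightly, at 12.41, 12.78 and 13.49 in the high strains and 11.15, 11.83 and 12.49 in the low strains. *Fasn* had the smallest gap of the 5, 0.43 units, with 15.81 to 15.98 in the high strains and 14.66 to 15.82 in the low strains. Its values lay close to 16.474, the highest value of any probe set in the 35 BXD strains, array controls left out. The 5 transcripts ranked the strains alike but not identically: of the 12 high strains, *Acaca* alone would have picked 12, *Fasn* and *Acly* 11, *Elovl6* 10 and *Me1* 9. Of the 12 low strains *Acaca* would have picked 8, *Elovl6* 9 and each of the others 10.

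Over the other 41150 probe sets, 509 differed between the high and low strains at an adjusted p under 0.05 (limma with Benjamini-Hochberg adjustment), which is 1.24% of those tested. Of these, 326 were higher (0.792%) and 183 lower (0.445%) in the high strains, and they name 292 and 166 genes. A call here means that a transcript moves with the 5 selection transcripts over strains measured on the same arrays. The typical change was small: the median difference was 0.36 units among the higher calls and -0.38 among the lower, while the median over all probe sets was 0.0045. Over all 41150 probe sets, 21277 differences were positive and 19873 negative. Of the 15828 probe sets with a gene symbol and a level above background, 288 were called higher and 153 lower. Most genes of the lists below are above background, so their counts are to be read beside these. The groups did not overlap at all for 12 probe sets higher in the high strains (0.0292% of those tested) and for 1 lower (0.00243%). The counts moved with single strains: without BXD45, BXD84, BXD96, BXD97, BXD80 or BXD61 they were 290, 324, 328, 333, 336 and 337, and without BXD90 914.

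Markers of several other cell types moved with the groups. Unless stated, the counts that follow come from the fit without these markers as covariates and are to be read with this in mind. All 6 endothelial markers were lower in the high strains, 2 of them past the threshold (*Esam* with -0.29 and *Pecam1* with -0.23), and their average ran from 11.19 to 11.59 in the high strains against 11.52 to 11.91 in the low strains. All 8 macrophage markers were also lower, 1 past the threshold (*Mpeg1*), with averages of 8.77 to 9.56 against 9.21 to 10.53, as were all 6 fibroblast markers, 1 past the threshold (*Pdgfra*), with 10.18 to 10.98 against 10.58 to 11.22. With the average of the endothelial markers as a covariate, which was added after the values had been seen, all 509 differences kept their sign at a median of 0.76 times their size, but their standard errors grew to 1.47 times (median) and 2 probe sets, *Gbe1* and *Atp4b*, remained called. With macrophage or fibroblast markers as the covariate, 34 and 52 probe sets were called, of which 30 and 49 were among the 509. Under these as well all 509 differences kept their sign, at a median of 0.88 and 0.87 times their size. Of the 509, 472 and 487 had an unadjusted p under 0.05 in limma, against 325 with the endothelial covariate. The 509 were chosen on the same arrays, so kept signs and low unadjusted p-values are no separate check of the calls. The calls of *Esam*, *Pecam1* and *Pdgfra* were lost in 11, 16 and 17 of the 24 fits that left out 1 strain each. The part that these cells have in the result was not tested. In whole tissue, fewer cells of a type and less RNA per cell cannot be told apart. The general adipocyte markers did not separate the groups: their averages were 13.52 to 13.76 in the high and 13.46 to 13.74 in the low strains, and 0 of 6 passed the threshold.

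Of 23 genes that stand next to the 5 selection transcripts in fatty acid synthesis, 9 rose in the high strains, 0 fell and 14 did not pass the test. Their median difference was 0.31 units, and 5 of the 23 differences were negative. *Slc25a1*, the mitochondrial citrate exporter, was at 14.002, 14.22 and 14.63 (lowest, median, highest) in the high strains and at 12.80, 13.49 and 13.73 in the low strains. Every high strain was above every low strain, and the mean difference was 0.82 units (standard error, SE, 0.09; nominally 1.77-fold; limma adjusted p = 4.03e-05). *Tecr*, the last step of each elongation cycle, was likewise without overlap, at 13.79, 13.88 and 14.26 against 13.20, 13.47 and 13.68, a difference of 0.44 units (SE 0.06; limma adjusted p = 0.000447). *Acsl5*, which activates long-chain fatty acids to acyl-CoA, was at 11.44, 12.43 and 13.42 in the high strains and 10.54, 11.05 and 11.76 in the low strains, nominally 2.68-fold higher (limma adjusted p = 0.000105), with 10 high strains above all low ones.

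Both cytosolic enzymes that make acetyl-CoA or its relatives outside the citrate route rose as well. *Acss2*, which turns acetate into acetyl-CoA, was at 11.80, 12.72 and 13.36 in the high strains and 11.22, 11.72 and 12.09 in the low strains (difference 0.93, SE 0.14; limma adjusted p = 0.00125). *Aacs*, which turns acetoacetate into acetoacetyl-CoA, was at 10.77, 11.33 and 12.06 against 10.06, 10.43 and 11.03 (difference 0.96, SE 0.13; limma adjusted p = 0.000315). In both genes a few low strains reached into the range of the high ones, 3 for *Acss2* and 1 for *Aacs*.

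The desaturases and elongases did not move as one. *Scd2* was at 10.80, 13.05 and 13.99 in the high strains and at 10.61, 11.04 and 12.77 in the low strains, a wide overlap, with a mean difference of 1.51 units (SE 0.33; nominally 2.84-fold; limma adjusted p = 0.0219). *Scd1* hardly differed, at 15.76, 15.86 and 15.97 against 15.56, 15.76 and 16.02 (difference 0.07, SE 0.05; limma adjusted p = 0.636), and its values also sit near the top of the scale. *Pnpla3*, a lipase-like protein of lipid droplets, rose by 0.78 units (limma adjusted p = 0.0311). *Elovl3*, the brown fat elongase, had a difference of 1.48 units (SE 0.45) that missed the threshold (limma adjusted p = 0.107). Its strains were widely spread within both groups, at 11.15, 12.60 and 14.44 in the high strains and at 8.54, 11.46 and 12.99 in the low strains. *Elovl5*, *Fads1* and *Fads2*, which serve polyunsaturated fatty acids, differed by 0.38, 0.07 and 0.04 units and did not pass the test. The calls of *Scd3* (0.31 units, at a level below that of most olfactory receptors, which mark background) and *Hsd17b12* (0.37 units) were lost in 17 and 19 of the 24 fits that left out 1 strain each, and that of *Pnpla3* in 5 of them, those without BXD87, BXD45, BXD101, BXD61 or BXD84.

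Among 21 regulators of lipogenesis, 4 rose, 0 fell and 17 did not pass the test (median difference 0.08 units). *Thrsp*, a cofactor long used as a readout of the program, was at 13.10, 13.38 and 14.14 in the high strains and 12.47, 12.76 and 13.10 in the low strains, so that 11 high strains were above all low ones (difference 0.72, SE 0.09; limma adjusted p = 0.000108). *Mlxipl*, which encodes ChREBP, was at 12.29, 12.80 and 13.24 against 12.19, 12.38 and 12.67 (difference 0.42, SE 0.08; limma adjusted p = 0.0107). Its partner *Mlx* was at 10.28, 10.58 and 10.88 against 9.94, 10.20 and 10.44 (difference 0.37, SE 0.07; limma adjusted p = 0.00899). Of the 18 alternative fits described at the end, 11 kept the call of *Mlx*, 14 that of *Mlxipl* and 17 that of *Thrsp*.

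*Srebf1*, which encodes SREBP1, differed by about the same amount as *Mlxipl* and *Mlx*, at 10.28, 10.64 and 11.04 in the high strains and 10.02, 10.31 and 10.64 in the low strains (difference 0.40, SE 0.09; limma adjusted p = 0.0192). In *Srebf1* 8 of the 12 low strains lay inside the range of the high strains, and 13 of the 18 alternative fits kept its call. *Insig1*, which retains the SREBP complex in the endoplasmic reticulum and is itself a target of it, differed by 0.52 units and missed the threshold (limma adjusted p = 0.0622). *Srebf2*, the regulator of cholesterol synthesis, differed by 0.06 (limma adjusted p = 0.751), the liver X receptor *Nr1h3* by 0.05, and *Pparg*, the master regulator of adipocytes, by 0.07, all without passing. The insulin receptor *Insr* and its substrates *Irs1* and *Irs2* differed by 0.04, 0.18 and 0.09 units and did not pass either.

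**Figure D2:**
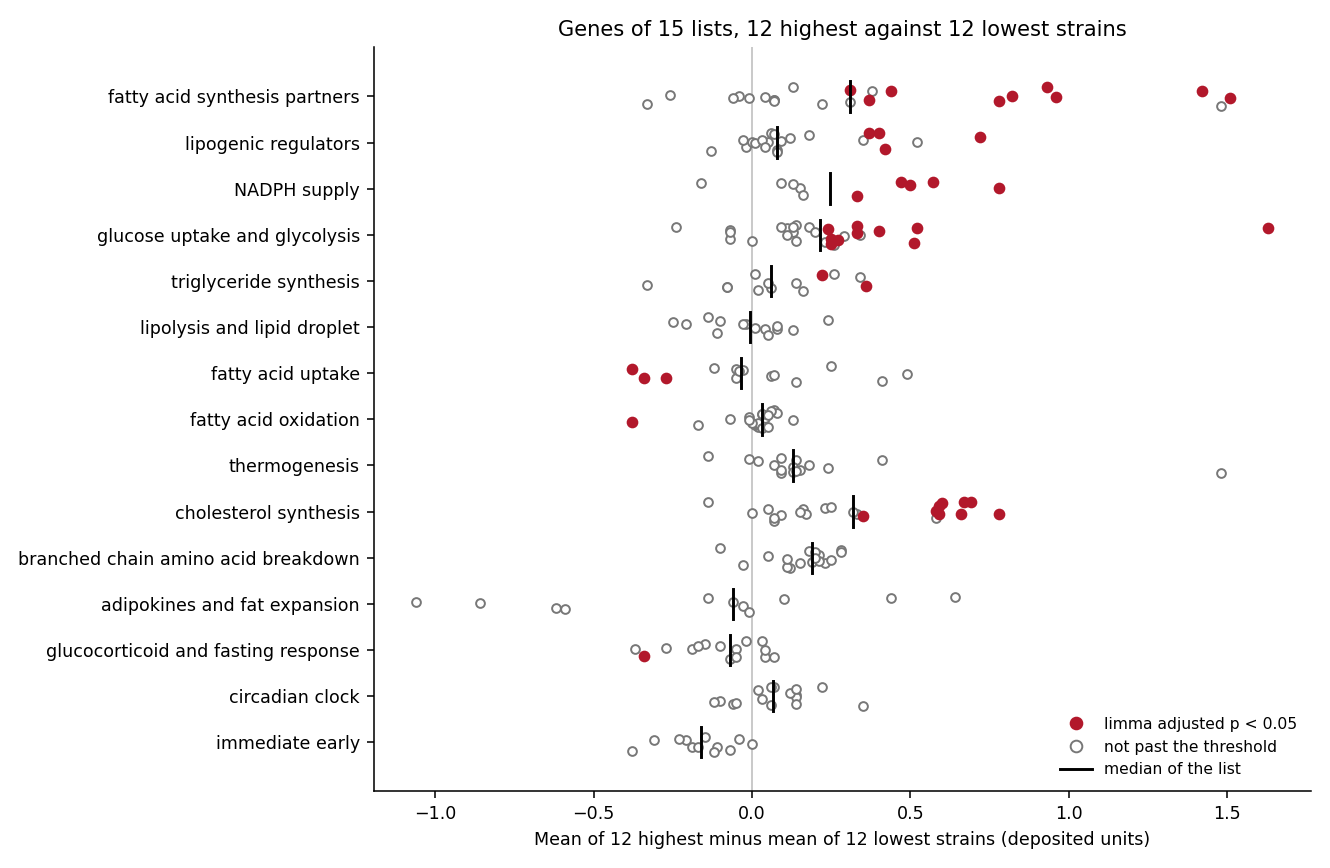
Difference between the mean of the 12 highest and the mean of the 12 lowest strains (deposited units) for every gene of 15 lists; filled red points passed an adjusted p of 0.05 in limma, open points did not, and black bars are list medians. Filled points lie to the right of 0 in the lists of fatty acid synthesis, regulators, NADPH, glucose, triglyceride and cholesterol synthesis, and to the left in fatty acid uptake, fatty acid oxidation and the fasting response.

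Of 10 genes of NADPH supply, 5 rose in the high strains, 0 fell and 5 did not pass (median difference 0.24 units), and the 5 were all in the pentose phosphate pathway. *Taldo1*, transaldolase, was at 11.78, 12.07 and 12.32 in the high strains and 11.36, 11.52 and 11.78 in the low strains (difference 0.50, SE 0.06; limma adjusted p = 9.13e-05). *Pgd*, which makes NADPH in the third step of the pathway, was at 12.86, 13.42 and 13.94 against 12.42, 12.65 and 12.92 (difference 0.78, SE 0.10; limma adjusted p = 9.13e-05). *Tkt*, transketolase, did not overlap, at 12.98, 13.24 and 13.55 against 12.18, 12.76 and 12.91.

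*G6pdx*, which encodes the entry enzyme of that pathway, was at 11.32, 11.79 and 12.19 in the high strains against 11.02, 11.34 and 11.57 (difference 0.47, SE 0.08; limma adjusted p = 0.00618), and *Rpe* rose by 0.33 units. The call of *G6pdx* was kept in 14 of the 18 alternative fits. The cytosolic dehydrogenase *Idh1*, another source of NADPH, differed by 0.09 units and did not pass (limma adjusted p = 0.612).

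Glucose handling upstream of acetyl-CoA was higher at selected steps. Of 28 genes, 10 rose, 0 fell and 18 did not pass, with a median difference of 0.21 units. The largest difference among all called probe sets belonged to *Slc2a5*, which encodes the fructose transporter GLUT5. It was at 8.94, 10.51 and 11.24 in the high strains and 8.08, 8.60 and 9.70 in the low strains, nominally 3.10-fold higher (difference 1.63, SE 0.23; limma adjusted p = 0.000423). The 8 strains at the top of the order were all above every low strain for this transcript, between 10.32 and 11.24, and the other 4 high strains, from 8.94 to 9.69, lay within the range of the low ones. *Slc2a4*, the insulin-responsive transporter GLUT4, rose by 0.51 units (limma adjusted p = 0.0163), while *Slc2a1*, the transporter of basal uptake, had medians of 9.80 and 9.84 (limma adjusted p = 0.993).

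The pyruvate dehydrogenase complex, which makes mitochondrial acetyl-CoA from pyruvate, rose in 3 subunits of the list. A further subunit outside the list, *Pdhx*, named after its values were seen, rose by 0.36 units (limma adjusted p = 0.0194). *Pdhb* was at 13.66, 13.95 and 14.28 in the high strains and 13.35, 13.58 and 13.74 in the low strains (difference 0.40, SE 0.06; limma adjusted p = 0.00103). *Dlat* did not overlap, at 13.48, 13.55 and 13.92 against 13.11, 13.30 and 13.45 (difference 0.33, SE 0.06; limma adjusted p = 0.00433), and *Pdha1* rose by 0.25 units. The kinase *Pdk1*, which inhibits the complex, rose too, at 10.36, 10.74 and 10.904 against 9.74, 10.23 and 10.49 (limma adjusted p = 0.00246), although only 1 of its 2 probe sets passed. *Pdk4*, the kinase that fasting raises, differed by -0.07 units and did not pass (limma adjusted p = 0.584). Pyruvate carboxylase (*Pcx*, 0.27 units), the pyruvate carrier subunit listed as *Brp44* (0.33) and the glycolytic genes *Gpi1* (0.25) and *Pgam1* (0.24) complete the 10, and leaving out single strains ended the calls of *Pcx* in 15, *Brp44* in 7, *Pdha1* in 8, *Pgam1* in 17 and *Gpi1* in 1 of 24 fits (the last without BXD97).

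**Figure D3:**
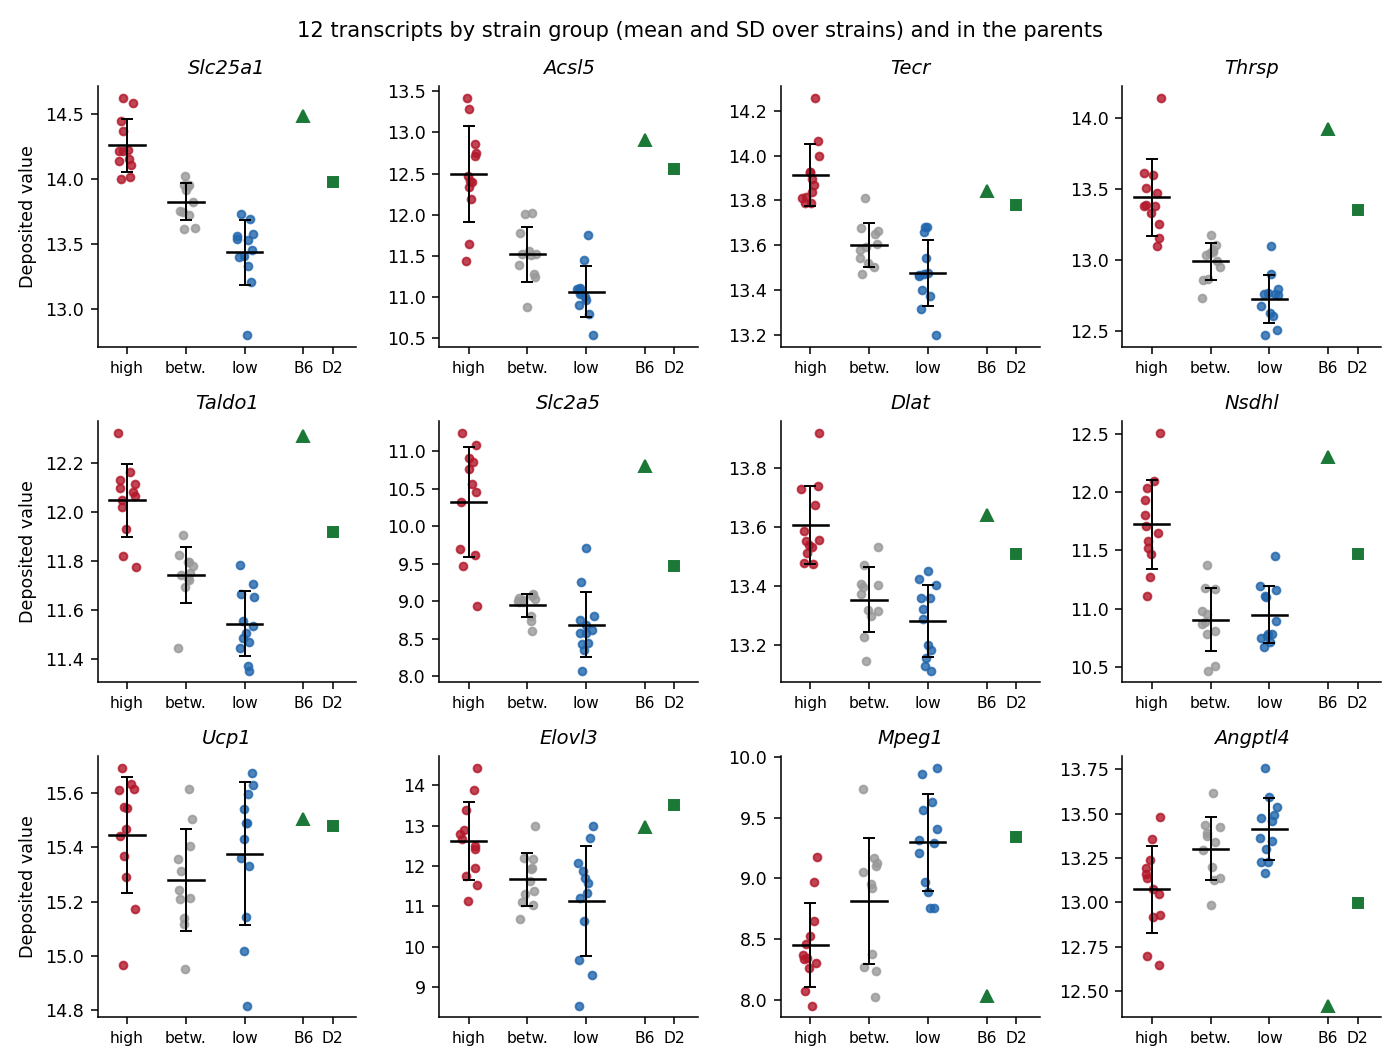
Deposited values of 12 transcripts in the 12 high (red), 11 between (grey) and 12 low strains (blue), with the mean and SD over strains, and in C57BL/6J (B6, triangle) and DBA/2J (D2, square), 1 array each. *Slc25a1*, *Tecr* and *Dlat* do not overlap between the high and low strains, whereas *Ucp1* and *Elovl3* overlap widely.

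Cholesterol synthesis uses the same acetyl-CoA and NADPH but a different regulator. Of 23 genes, 9 rose, 0 fell and 14 did not pass, with a median difference of 0.32 units, and 22 of the 23 differences were positive. *Nsdhl*, a sterol dehydrogenase, was at 11.10, 11.68 and 12.51 in the high strains and 10.67, 10.84 and 11.45 in the low strains (difference 0.78, SE 0.13; limma adjusted p = 0.00245). *Fdps*, which makes farnesyl diphosphate, was at 10.19, 10.63 and 11.50 against 9.85, 10.08 and 10.39 (difference 0.60, SE 0.11; limma adjusted p = 0.00433). *Idi1*, the isomerase just before it, was at 9.75, 10.25 and 11.08 against 9.32, 9.60 and 9.94 (difference 0.66, SE 0.12; limma adjusted p = 0.00835). In these 3 genes BXD87 was the highest of the 35 BXD strains.

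*Lss*, lanosterol synthase, was at 9.41, 9.80 and 10.48 in the high strains and 9.13, 9.30 and 9.52 in the low strains (difference 0.59, SE 0.12; limma adjusted p = 0.00967). *Pmvk* (0.58 units), *Cyp51* (0.59), *Sqle* (0.67) and *Dhcr7* (0.35) also rose, the last 3 with calls that ended in 12, 18 and 17 of 24 fits without 1 strain. *Hmgcs1*, which makes HMG-CoA, had a difference of -0.14 units and did not pass (limma adjusted p = 0.75).

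Few steps downstream of fatty acid synthesis moved. In triglyceride synthesis 2 of 13 genes rose and 0 fell (median difference 0.06 units). *Gpd1*, which makes glycerol 3-phosphate from a glycolytic intermediate, was at 14.90, 15.10 and 15.28 against 14.72, 14.93 and 15.07 (difference 0.22, SE 0.05; limma adjusted p = 0.0253). The call was carried by 1 of its 2 probe sets and kept in 12 of the 18 alternative fits. *Mogat1*, a monoacylglycerol acyltransferase, rose by 0.36 units (limma adjusted p = 0.032), and its call ended in 8 of the 24 fits without 1 strain. *Agpat2* and *Dgat2*, 2 enzymes of the main route to triglyceride, differed by 0.26 and 0.16 units (limma adjusted p = 0.0974 and 0.253).

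Of the 14 genes for lipolysis and lipid droplets, 0 passed in limma, with a median difference of -0.01 units. The smallest p-values there were those of *Plin3* (0.24 units, limma adjusted p = 0.171) and *Plin4* (-0.21, limma adjusted p = 0.246). Fatty acid uptake moved the other way at 3 of 14 genes, with 0 higher. *Angptl4*, a fasting-induced inhibitor of lipoprotein lipase, was at 12.65, 13.11 and 13.48 in the high strains and 13.17, 13.41 and 13.76 in the low strains (difference -0.34, SE 0.09; limma adjusted p = 0.0466). *Gpihbp1*, which holds that lipase on capillary endothelium, was at 10.74, 11.05 and 11.34 against 11.11, 11.30 and 11.50 (difference -0.27, SE 0.07; limma adjusted p = 0.0391). The lipoprotein receptor *Lrp1* fell as well (-0.38, limma adjusted p = 0.036).

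All 3 calls were fragile, lost in 16 (*Angptl4*), 17 (*Gpihbp1*) and 14 (*Lrp1*) of the 24 fits without 1 strain. With the endothelial marker average as a covariate, the difference of *Gpihbp1*, itself an endothelial gene, was -0.08 (limma adjusted p = 0.873), that of *Angptl4* -0.21 and that of *Lrp1* -0.18. The lipase itself, *Lpl*, differed by -0.05 units and the transporter *Cd36* by -0.12, and neither passed.

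Fatty acid oxidation and thermogenesis gave few calls. Of 21 oxidation genes, 1 fell and 0 rose. It was *Cpt1a*, the non-muscle form of the carnitine shuttle's gate, which malonyl-CoA inhibits, at 10.06, 10.49 and 10.80 in the high strains and 10.55, 10.82 and 11.41 in the low strains (difference -0.38, SE 0.10; limma adjusted p = 0.046), a call lost in 16 of 24 fits without 1 strain. The differences of the other 20 lay between -0.17 (*Acot2*) and 0.13 (*Cpt2*). Of 16 thermogenic genes, 0 passed in limma, and *Ucp1* was at 14.97, 15.51 and 15.69 in the high strains and 14.82, 15.46 and 15.67 in the low strains (difference 0.07, SE 0.10; limma adjusted p = 0.832). *Letmd1*, at 0.24 units, came nearest to the threshold (limma adjusted p = 0.077).

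Breakdown of branched chain amino acids, another source of acyl-CoA in brown fat, gave 0 calls of 17 in limma. Its differences were positive for 15 genes, with a median of 0.19 units, while 21277 of all 41150 probe sets had a positive difference. *Hibch*, at 11.96, 12.21 and 12.40 against 11.66, 11.93 and 12.20, came closest (difference 0.25, limma adjusted p = 0.0513), followed by the mitochondrial carrier *Slc25a44* (0.28, limma adjusted p = 0.0642). Among 11 adipokines and markers of fat expansion 0 passed in limma, and *Mest*, which rises as fat cells enlarge, had the widest gap, -1.06 units (SE 0.32; limma adjusted p = 0.104). Leptin (*Lep*) ran from 9.80 to 13.25 in the high strains and from 9.43 to 13.38 in the low strains.

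Transcripts that respond to handling, feeding state or time of day gave 1 call. Of 15 glucocorticoid and fasting genes 1 fell (*Angptl4*) and 0 rose. Among the core clock and its outputs 0 of 16 passed in limma, and 0 of 12 immediate early genes did, although 11 of those 12 differences were negative. The average of the immediate early genes ran from 9.27 to 10.59 in the high and from 9.44 to 10.68 in the low strains.

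Further large rises among probe sets above background were outside these lists. *Acot11*, a long-chain acyl-CoA thioesterase of brown fat, did not overlap, at 11.24, 11.58 and 12.29 in the high strains and 9.99, 10.56 and 11.01 in the low strains (difference 1.05, SE 0.12; limma adjusted p = 4.03e-05), and both of its probe sets passed. *Parm1*, a mucin-like membrane protein, did not overlap either, at 12.29, 12.67 and 13.03 against 11.15, 11.64 and 12.18 (difference 0.93, SE 0.11; limma adjusted p = 9.13e-05). *Sorcs2*, a sorting receptor, was at 9.70, 10.65 and 11.32 against 8.82, 9.26 and 9.99 (difference 1.24, SE 0.16; limma adjusted p = 0.000108).

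*Ppp1r3b*, which directs a phosphatase to glycogen and favours its synthesis, was at 10.63, 11.39 and 11.95 in the high strains against 9.82, 10.15 and 11.15 in the low strains (difference 1.0, SE 0.17; limma adjusted p = 0.00407). Another glycogen gene, *Gbe1*, the branching enzyme, was among the probe sets whose groups did not overlap and rose by 0.44 units (limma adjusted p = 8.07e-05). It was named after its values were seen, as was *Atp4b*, a subunit of a proton pump (0.75 units, limma adjusted p = 1.15e-05). *Cyp2c55*, a cytochrome P450, rose by 0.91 units in 1 of its 2 probe sets, and the other was not called higher. The range was narrow in the high strains, 12.98 to 13.42, and wide in the low strains, 10.98 to 13.10. *Lactb2*, *Nmt1*, *1500032L24Rik* and *LOC100861787* complete the 12 without overlap, with rises of 0.22 to 0.77 units. *Fam189a2* was the 1 probe set without overlap that fell (-0.33 units, limma adjusted p = 0.00355).

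The largest fall of all was that of *Atp6v0d2*, a proton pump subunit, at -1.09 units (limma adjusted p = 0.037), with a mean level of 6.77 that lies below background. It was named after its values were seen. The 10 largest falls above background follow. *Ctss*, the lysosomal protease cathepsin S, was at 8.16, 8.80 and 9.68 in the high strains and 8.87, 9.79 and 10.88 in the low strains (difference -0.94, SE 0.20; limma adjusted p = 0.0187). *Mpeg1*, a pore-forming protein of macrophages, was at 7.95, 8.36 and 9.18 against 8.75, 9.30 and 9.91 (difference -0.84, SE 0.14; limma adjusted p = 0.00407). *Lilrb4*, an inhibitory leukocyte receptor, fell by 0.93 and *Cybb*, a subunit of the phagocyte oxidase, fell by 0.78 units. The lectin *Clec12a* fell by 0.77.

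*Ear2*, a ribonuclease of eosinophils with close copies in the genome, which makes its probe set uncertain, fell by 0.85 units. The other 4 of the largest falls were *Anxa1* (annexin A1, -0.83), *Tnc* (the matrix protein tenascin C, -0.82), *Lrrc61* (-0.79, 1 of 2 probe sets) and *Sncg* (gamma-synuclein, -0.77). The calls of *Sncg*, *Anxa1* and *Cybb* were lost in 19, 8 and 5 of the 24 fits without 1 strain, and that of *Clec12a* without BXD84. For *Cybb* these were BXD87, BXD45, BXD61, BXD80 and BXD84. With macrophage markers as a covariate, *Tnc* had a difference of -0.65 (limma adjusted p = 0.308), *Lilrb4* of -0.43 (0.313) and *Ctss* of -0.32 (0.508). *Mpeg1* is itself one of those markers, so this covariate gives no separate value for it.

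**Figure D4:**
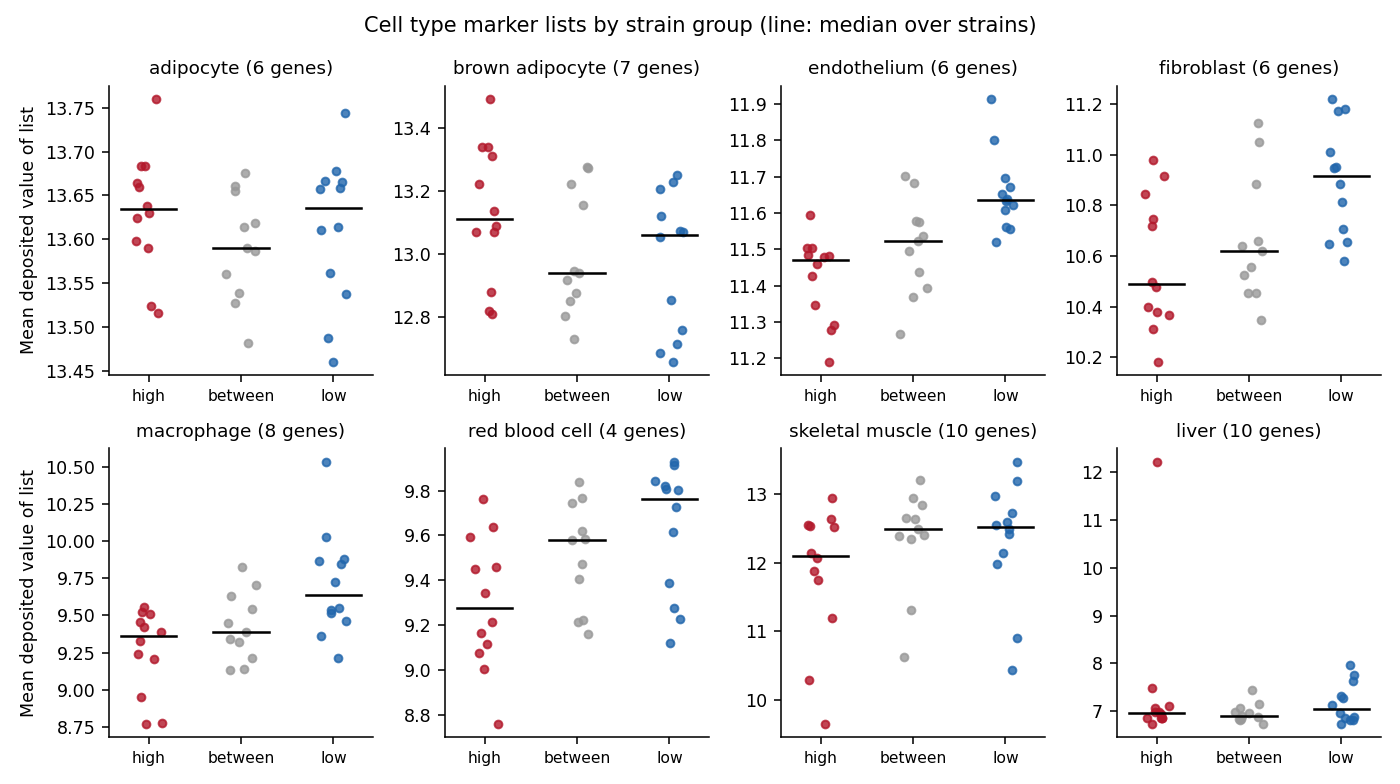
Average deposited value of 8 cell type marker lists in each of the 12 high, 11 between and 12 low strains, with the median as a line. Adipocyte averages overlap fully, endothelial averages overlap only between 11.52 and 11.59, and BXD70 stands alone for liver markers at 12.23.

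The remaining marker lists gave 0 calls in limma for the brightest probe set of each gene. All 10 skeletal muscle markers were lower in the high strains (median difference -0.47 units, with 0 past the threshold), and their averages overlapped, from 9.65 to 12.95 in the high and from 10.44 to 13.47 in the low strains. With the muscle average as a covariate, 429 probe sets were called, 364 of them shared with the 509, and with the adipocyte average 462, of which 430 were shared. The 4 red blood cell markers were lower as well (median -0.40 units), with averages of 8.76 to 9.77 against 9.12 to 9.93. All 8 lymphocyte markers, 2 of them above background, were lower (median -0.16), and the 10 liver markers, 3 of them above background, had a median of 0.26. The differences of all 7 brown adipocyte markers were positive, with a median of 0.13, as were those of 14 of the 16 thermogenic genes. A second, dimmer probe set of the white adipocyte marker *Nnat* was called lower (-0.499, limma adjusted p = 0.0412). The medians of the other lists were 0.07 for 6 white adipocyte and 0.06 for 7 nerve and Schwann cell markers.

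The arrays of the parents took no part in the choice of strains. In the parents, 1 array each, C57BL/6J was above DBA/2J for the average of the 5 selection transcripts by 0.58 units. It was also above for 261 of the 326 probe sets called higher (80.1%, against 51.1% of all probe sets with a positive difference between the groups) and below for 159 of the 183 called lower (86.9%, against 55.0% of all with a negative difference). *Slc2a5* was at 10.80 in C57BL/6J and 9.47 in DBA/2J, *Thrsp* at 13.92 and 13.35, *Aacs* at 12.36 and 11.43, *Mpeg1* at 8.03 and 9.34 and *Cpt1a* at 9.96 and 10.95. *Elovl3* went the other way, at 12.97 and 13.52. By list, C57BL/6J was higher for 10 of 10 genes of NADPH supply, 22 of 28 of glucose uptake and glycolysis, 17 of 23 of cholesterol synthesis, 12 of 23 of the fatty acid synthesis partners, 12 of 21 regulators and 6 of 13 of triglyceride synthesis, against 48.1% of all probe sets. Markers of other cells differed between the parents as well. C57BL/6J was higher for 0 of 8 macrophage, 0 of 6 endothelial, 2 of 6 fibroblast and 0 of 10 liver markers. The liver markers averaged 7.08 in C57BL/6J and 10.24 in DBA/2J, the macrophage markers 9.13 and 9.86, and the endothelial markers 11.2 and 11.55. Their part in the parental differences was not tested. With 1 array per parent these are values without a replicate check. The called probe sets were chosen because they move with the same 5 transcripts, so their signs in 1 pair of arrays are not separate observations. The shares over all probe sets include dim ones.

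**Figure D5:**
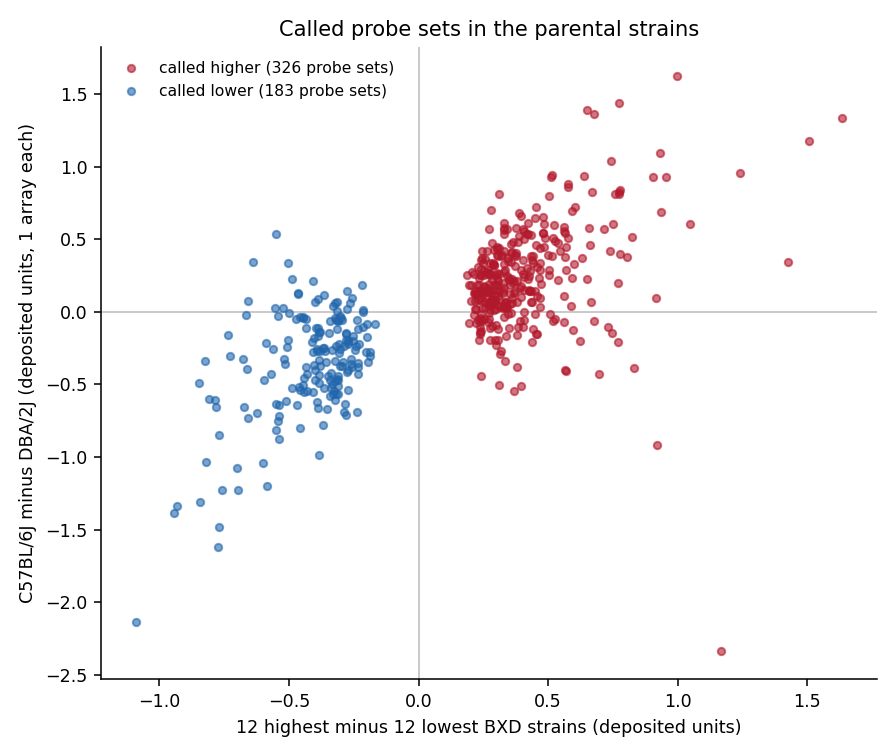
Difference between C57BL/6J and DBA/2J (1 array each) against the difference between the 12 highest and 12 lowest BXD strains, both in deposited units, for the 326 probe sets called higher (red) and the 183 called lower (blue). Most points lie to the upper right (261) or lower left (159).

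Among the 11 strains between the groups the higher calls did not share the sign more often than other probe sets. Over their narrow range of 0.32 units, the slope on the average of the 5 transcripts was positive for 131 of the 326 probe sets called higher (40.2%, against 44.6% of all with a positive difference) and negative for 128 of the 183 called lower (69.9%, against 50.1%). In these 11 strains 0 of 41150 probe sets passed in limma, while 2038 had an unadjusted p under 0.05. *Aacs*, *Acss2* and *Slc2a5* had positive slopes there (1.01, 0.92 and 0.73 units per unit) and *Acsl5* and *Thrsp* negative ones (-0.71 and -0.78).

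The sequences just before some of the genes that moved together are shown because a shared promoter element is often discussed for this pathway. Promoters were taken from RefSeq (GRCm38.p6), and the 250 bases before each gene start were searched on both strands for CCAAT (the box bound by NF-Y), CACGTG (an E-box) and TCACNCCAC (a sterol regulatory element). None of the motifs contains another. Of the 292 genes called higher 187 had a promoter there, and of the 166 called lower 120. Among these, CCAAT stood in 45.5% of the genes called higher and 38.3% of those called lower. It stood in 39.2% of the 16048 tested genes with a promoter and 37.5% of all 27025 genes with a promoter. The shares for CACGTG were 13.4% and 5.83%, against 7.77% and 6.86%, and for TCACNCCAC 2.14% and 1.67%, against 1.28% and 1.22%. A gene counted if any of its promoters matched. The 187 genes called higher had 247 promoters and the 16048 tested genes 19501, and the effect of this was not tested. In the 140 bases shown for each of 4 genes, all on the minus strand and written 5′ to 3′ up to the base before the gene start, capitals mark CCAAT or its reverse complement.
Fasn (chr11:120824548-120824687): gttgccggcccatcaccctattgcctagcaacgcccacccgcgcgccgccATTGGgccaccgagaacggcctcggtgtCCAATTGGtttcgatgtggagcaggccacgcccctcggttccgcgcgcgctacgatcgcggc
Slc25a1 (chr16:17928220-17928359): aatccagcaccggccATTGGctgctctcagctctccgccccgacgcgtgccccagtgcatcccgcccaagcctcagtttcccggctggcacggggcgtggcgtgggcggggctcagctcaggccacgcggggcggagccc
Tecr (chr8:83594492-83594631): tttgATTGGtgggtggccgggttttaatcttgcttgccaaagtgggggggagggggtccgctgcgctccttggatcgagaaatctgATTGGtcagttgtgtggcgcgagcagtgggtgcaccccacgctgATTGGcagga
Thrsp (chr7:97417551-97417690): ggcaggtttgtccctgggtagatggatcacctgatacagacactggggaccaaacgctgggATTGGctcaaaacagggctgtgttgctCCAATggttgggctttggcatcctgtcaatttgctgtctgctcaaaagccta
The windows held 3 matches in *Fasn*, of which 2 overlap, 1 in *Slc25a1*, 3 in *Tecr* and 2 in *Thrsp*. Of the 5 selection genes *Fasn* and *Me1* had a CCAAT within 250 bases and 0 had either of the other motifs. *Slc2a5*, *Aacs*, *Tkt* and *Dlat* had none of the 3. The 4 genes shown all have a CCAAT and do not stand for the genes that moved together. A match is a description of the letters and shows no binding.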

How the data were processed

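BAT arrays (Affymetrix) of 35 BXD strains, C57BL/6J and DBA/2J were analysed, 1 array per strain. The authors deposited 1 table of 41345 probe sets, whose values are scores: each array was rescaled to a mean of 8 and an SD of 2. The submitters' processing notes name Affymetrix Expression Console, and the summary method, log base and genome build are not given in the sources used here. After 190 array controls and the 5 selection probe sets were left out, the other 41150 entered a limma 3.58.1 fit (R 4.3.3, moderated by eBayes), called at a Benjamini-Hochberg adjusted p under 0.05. Arrays have no read depth, so the number of arrays limits the precision. Probe sets of 1128 olfactory receptors gave the background (95th percentile, 7.94). The step was tested on simulated data.

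The strains, lists and markers were chosen with earlier results of these data known. Of 317 listed symbols 314 were matched, some through older names. The brightest probe set stood for a gene. Named were the 10 largest called differences in each direction above background, up to 4 genes with the smallest p per list, the 2 brightest per marker list, any gene of the synthesis and regulator lists, and, after their values were seen, genes whose groups did not overlap and single members of called lists. Alternatives were other normalizations, filters, tests, group sizes, scores and covariates, and each strain left out in turn. The macrophage, endothelium and fibroblast covariates were chosen after seeing the data. Tables and figures were made with Python 3.11.15, pandas 2.3.3 and matplotlib 3.10.9. A few members of the lists are counted but not reported here by name.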

Additional observations from a re-analysis of the deposited data

How the results depend on the processing

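Beside the 509 calls (326 higher and 183 lower in the high strains), quantile normalization gave 197 (126 and 71), median centring 373 (256 and 117), and leaving out dim probe sets 941 of 19431 (547 and 394). With 8 strains a group there were 79 (64 and 15) and with 17 a group 60 (48 and 12). The fit on the continuous average over 35 strains gave 649 (351 and 298), and the clock genes as a covariate 335 (231 and 104). The covariates added after seeing the data gave 34 for macrophages (28 and 6), 2 for endothelium (2 and 0) and 52 for fibroblasts (47 and 5), while 3740, 3175 and 3824 probe sets had an unadjusted p under 0.05. Leaving out 1 strain gave 290 to 914 calls, 200 to 565 higher and 90 to 349 lower, the lowest without BXD45 and the highest without BXD90. The other 8 alternatives gave between 411 and 604, among them the methods' t-test with 5294 at an unadjusted p under 0.05 and 545 after Benjamini-Hochberg adjustment. The score of 3 of the 5 transcripts and that over all probe sets of a gene chose the same 24 strains. Both therefore repeat the 509 calls and are no separate check. The causes of the shifts in these counts were not tested. Of the 97 named genes 43 were called, and 0 of their calls changed sign under any of the 18 alternatives or without any 1 strain. The genes were chosen from the same arrays, so kept signs are no separate check of the calls. With the endothelial covariate 0 of the 43 passed the threshold. Calls were also lost with macrophage markers, among them *Scd2* (limma adjusted p = 0.0629), *Tkt* (0.055), *Acss2* (0.075), *Srebf1* (0.166) and *Mlxipl* (0.179). *Slc25a1* (0.00575) and *Acot11* (0.00597) stayed called there. The falls of *Ctss*, *Ear2* and *Mpeg1* were lost with macrophage and with fibroblast markers. Over the 18 alternatives, a call of a named gene was lost in 187 cases, and in 104 without 1 strain. No paired analysis was possible because the groups compared share no replicate numbers. The number of arrays, 1 per strain, limits the precision.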
